A study of Solanum lycopersicum with 3 samples.

Results

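The wide reproducible HSFA1a peaks were the replicate 1 peaks on the 12 numbered chromosomes that spanned at least 350 bp and overlapped a replicate 2 peak by at least 1 bp. There were 698 of them, among 13503 replicate 1 peaks shared with replicate 2 and 24164 replicate 1 peaks on the chromosomes in all. They made up 5.17% of the shared peaks. The members were chosen by the replicate 1 width and by the presence of a replicate 2 peak. Every replicate 1 value of these peaks is therefore given below as a description, and tests were made only on replicate 2 peaks and on chromosome position. The tests of summit side and of fold enrichment also read replicate 1, from which they take the peak centre, the offset limit or the fold enrichment. Each wide peak was set against 1 shared replicate 1 peak of 200 to 300 bp with nearly the same replicate 1 fold enrichment, called a comparison peak. These 698 comparison peaks were drawn from 9705 shared peaks of that width, and the largest difference within a pair was 0.0079 on the log2 scale.

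The peaks came from amplified DNA affinity purification sequencing (AmpDAP-seq), in which a tagged transcription factor on beads captures fragments of naked, PCR-amplified genomic DNA. Leaves of 4-week-old plants of the tomato cultivar M82 gave the DNA, and the plants were kept at 24 °C under a 16 h day. HSFA1a carrying a Halo tag was made in a wheat germ cell-free extract, and the captured DNA went through 20 PCR cycles before sequencing of 75 bp single reads. There were 3 samples, 2 biological replicates of HSFA1a-Halo-tag and 1 sample of Halo-tag alone, which was not analysed here. Extracted and amplified DNA carries neither nucleosomes nor plant DNA methylation, so the assay leaves out both.

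HSFA1a belongs to class A of the heat shock transcription factors and is known in tomato as a master regulator of the response to heat. Heat shock factors bind as trimers to heat shock elements, which are runs of short inverted repeats of a GAA core, and each DNA-binding domain of the trimer contacts 1 such repeat. A longer run of repeats, or several separate elements on neighbouring stretches of DNA, can be occupied by more than 1 trimer. The sequence under these peaks and the genes near them were not analysed here, because both need the genome and annotation of the M82 assembly on which the coordinates stand.

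The fold enrichment of a peak is the pileup of tags at its summit over the local background, with 1 added to both. Pileups solved from the deposited values had a median of 58.1 tags over all replicate 1 peaks and 24 tags over all replicate 2 peaks. The solved pileup was a whole number at 100% of replicate 2 summits and at 8.65% of replicate 1 summits. Replicate 1 values in tags may therefore be scaled rather than counted. Replicate 1 had no peak shorter than 152 bp and replicate 2 none shorter than 134 bp. Replicate 2 thus had the lower solved pileups and the narrower peaks, and its widths were read by their rank within replicate 2. Sequencing depth itself was not measured here.

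Most of the wide peaks lay close to the threshold. Of the 698, 400 spanned 350 to under 400 bp, 205 spanned 400 to under 500 bp and 93 spanned 500 bp or more, with a median of 389 bp and a highest width of 1646 bp. Just inside the threshold, 101 wide peaks of 350 to under 360 bp had a median replicate 1 fold enrichment of 7.89 and a median summit offset of 43 bp. Just outside it, 138 shared peaks of 340 to under 350 bp had 9.35 and 31.8 bp. The peaks just outside thus had the higher enrichment and the smaller offset. Another 87 replicate 1 peaks of at least 350 bp had no replicate 2 peak and are not members. Their median fold enrichment was 3.63 and their summits lay a median of 91.5 bp from the centre. Reproducible calls made up 698 of 785 replicate 1 peaks of at least 350 bp (88.9%, 95% Wilson interval 86.5 to 90.9), and 9705 of 12915 peaks of 200 to 300 bp (75.1%, 74.4 to 75.9). These shares are a description, because width and overlap are what the rule used. The groups were not paired by fold enrichment here, and a longer interval meets an overlap of 1 bp more easily.

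The pairing equalised enrichment in replicate 1, and the groups were also close in replicate 2. The median fold enrichment was 8.79 in replicate 1 and 8.26 in replicate 2 at wide peaks (mean 8.53 ± 0.37, SD, n = 2), and 8.79 in replicate 1 and 8.12 in replicate 2 at comparison peaks (mean 8.46 ± 0.47, SD, n = 2). Wide peaks ran from 1.88 to 22.7 in replicate 1 and from 2.23 to 24.96 in replicate 2. Across the 698 wide peaks the fold enrichments of the replicates were correlated with r = 0.785 (Pearson) and rho = 0.783 (Spearman), and across comparison peaks with r = 0.793 and rho = 0.782. These coefficients describe sites within a single pair of libraries. Width carried little information on strength once a peak was wide. Width and fold enrichment in replicate 1 had an r of 0.04 across wide peaks, against 0.53 across comparison peaks.

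In replicate 1 the median pileup was 110 tags at wide peaks and 105 tags at comparison peaks, over median backgrounds of 11.8 and 10.9 tags. In replicate 2 the median pileup was 30.5 tags at wide peaks and 29 tags at comparison peaks, over backgrounds of 2.75 and 2.57 tags. The backgrounds of the lists followed each other, with r = 0.972 across the 620 wide peaks with replicate summits within 50 bp and a median ratio of replicate 2 to replicate 1 of 0.235. The lists are thus not fully independent of each other, because fold enrichment and peak ends in both depend on a background that moved together. The wide peaks stood on a slightly higher background in both libraries, and its part in the results below was not tested beyond a pairing on background and fold enrichment together.

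In replicate 1 the summits of wide peaks lay off the peak centre. The summit lay a median of 57.5 bp from the centre of wide peaks (quartiles 38.5 and 84.5 bp) and 6.5 bp from the centre of comparison peaks (quartiles 3 and 12 bp). Relative to peak length the median offset was 14.7% at wide peaks and 2.69% at comparison peaks. An offset of at least 50 bp was seen in 420 wide peaks and in 4 comparison peaks, and one of at least 100 bp in 113 wide peaks and in 0 comparison peaks. Among all 13503 shared peaks, 616 had an offset of at least 50 bp. Peak length limits the offset, so comparison peaks had little room for one of 100 bp. The summit fell left of the centre in 340 of the 698 wide peaks (48.7%, 95% Wilson interval 45.02 to 52.4).

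The extra length was thus carried mainly by one flank. From summit to nearer end, wide peaks spanned a median of 139 bp and comparison peaks 119 bp. From summit to farther end, wide peaks spanned 254 bp and comparison peaks 134 bp. The groups thus differed more on the farther flank than on the nearer one. Narrower wide peaks had the smaller displacement. The median offset was 47.8 bp in peaks of 350 to under 400 bp, 76.5 bp in peaks of 400 to under 500 bp and 130 bp in peaks of 500 bp or more. The plot of offset against width shows both groups.

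**Figure D1:**
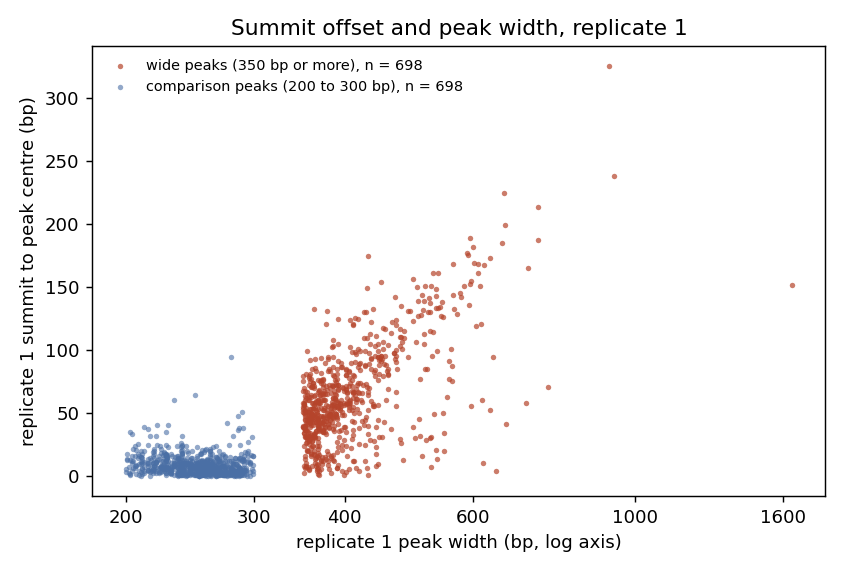
Distance of the replicate 1 summit from the peak centre (bp) against replicate 1 peak width (bp, log axis) for 698 wide peaks (red) and 698 comparison peaks (blue), 1 point per peak. Offsets of wide peaks have a median of 57.5 bp and grow with width, while those of comparison peaks have a median of 6.5 bp.

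The first question asked of replicate 2 was whether the same sites were wide there. They were, as a group. The widest overlapping replicate 2 peak had a median width of 267 bp at wide peaks (lowest 134 bp, highest 789 bp) and 193.5 bp at comparison peaks (lowest 134 bp, highest 555 bp), so the ranges overlapped. A replicate 2 peak was counted as wide when it reached 243 bp, the 90th percentile of replicate 2 widths. This held for 416 of 698 wide peaks (59.6%, 95% Wilson interval 55.9 to 63.2) and for 50 of 698 comparison peaks (7.16%, 5.48 to 9.32), while over all 13503 shared peaks the share was 10.9%. The difference was 52.4 percentage points (95% interval 48.2 to 56.4, Fisher's exact test, two-sided, Benjamini-Hochberg adjusted p = 3.63e-104 over 6 tests). That p treats peaks of a single pair of libraries as independent and leaves the pairing out, so it does not measure variation between libraries. Over all shared peaks the widths in the libraries were correlated (r = 0.643), so a difference in this direction goes with choosing members by replicate 1 width. The share was higher at wide peaks on 12 of 12 chromosomes. Within the wide peaks, width in one library said little about width in the other. Replicate 1 width and widest replicate 2 width had an r of 0.262 and a rho of 0.216 across wide peaks. Across comparison peaks they had 0.537 and 0.571.

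The other wide peaks were not wide in the second library by this measure. At 7 wide peaks and 21 comparison peaks the only replicate 2 peak had the shortest length of that list. A replicate 2 peak of at least 350 bp was found at 104 wide peaks and at 1 comparison peak. Conversely, of 134 replicate 2 peaks of at least 350 bp, 104 overlapped a wide peak and 132 overlapped some replicate 1 peak. With the roles of the libraries exchanged, 466 shared replicate 2 peaks reached 290 bp, the width with the same rank in that list, and 271 of them overlapped a wide peak.

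**Figure D2:**
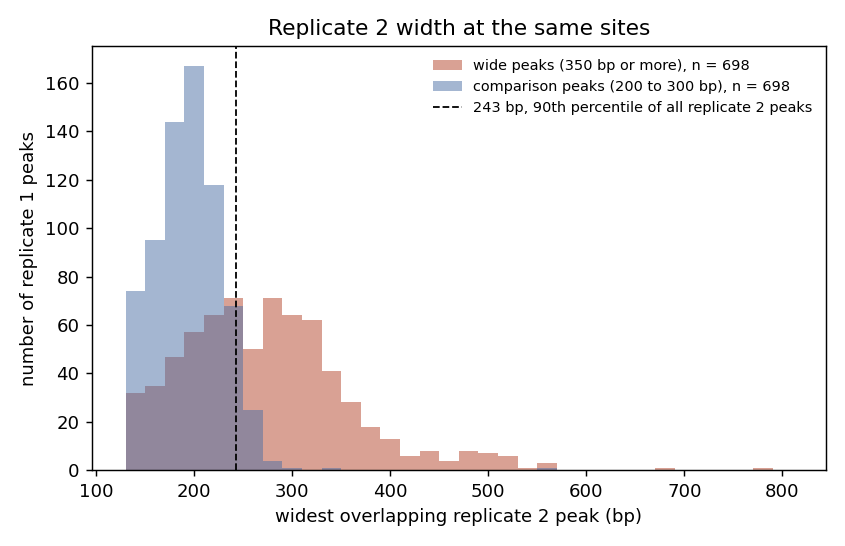
Number of replicate 1 peaks by the width of the widest replicate 2 peak that overlaps them (bp, bins of 20 bp), for 698 wide peaks (red) and 698 comparison peaks (blue), with the 90th percentile of replicate 2 widths (243 bp) as a dashed line. Of the wide peaks 416 lie at or beyond the line, and of the comparison peaks 50.

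Width recurred more often at the more enriched of the wide peaks. The share in the widest 10% of replicate 2 was 57.5% for wide peaks of 350 to under 400 bp (95% interval 52.6 to 62.3), 59.0% for 400 to under 500 bp (52.2 to 65.5) and 69.9% for 500 bp or more (59.9 to 78.3), and these intervals overlap. Below the threshold it was 45.8% for the 988 shared peaks of 300 to under 350 bp and 10.9% for the 4442 peaks of 250 to under 300 bp. In 4 equal groups of replicate 1 fold enrichment, from lowest to highest, it was 42.9%, 55.2%, 61.5% and 78.9% of the wide peaks. In comparison peaks over the same 4 ranges it was 6.25%, 4.62%, 8.62% and 9.14%. The lowest group of wide peaks, with fold enrichments up to 6.02, therefore repeated its width least often, and its interval (35.8 to 50.3) lies below that of the highest group (72.2 to 84.3). Median replicate 2 fold enrichment rose along the same groups, from 5.21 to 12.4 at wide peaks and from 5.62 to 11.99 at comparison peaks. Its part in passing the fixed width limit was not tested.

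The next point was whether replicate 2 resolved a wide peak into several. It did so at 21 of 698 wide peaks (3.01%, 95% Wilson interval 1.98 to 4.56) and at 0 of 698 comparison peaks, which allows a share of up to 0.43%. Over all shared peaks the share was 0.156%, which comes to 21 peaks, so all 21 shared peaks that replicate 2 divided were wide ones. These counts are given as a description with no p, because the rule set the width and a longer interval can touch more peaks. The narrowest divided peak spanned 482 bp, well beyond the 300 bp at which comparison peaks end, and 0 of the 400 wide peaks under 400 bp were divided. Of the 21, 19 were among the 93 peaks of 500 bp or more (20.4%, 95% interval 13.5 to 29.7). With the roles exchanged, 1 of 466 wide replicate 2 peaks contained more than 1 replicate 1 peak, against 0 of 466.

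**Figure D3:**
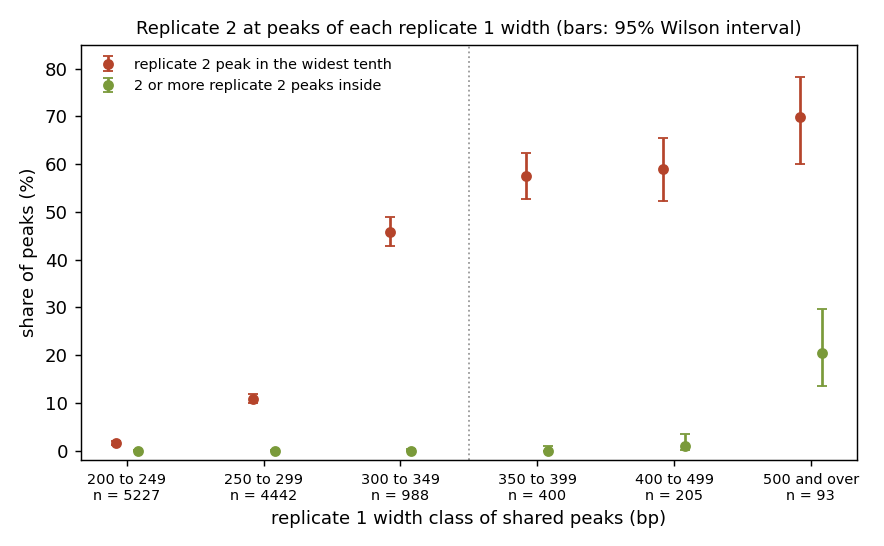
Share of shared peaks (%) with a replicate 2 peak in the widest 10% (red) and with 2 or more replicate 2 peaks inside (green), by replicate 1 width class (bp), with 95% Wilson intervals as bars and the 350 bp threshold as a dotted line. The first share is already 45.8% at 300 to under 350 bp, whereas the second is at most 0.976% below 500 bp and is 20.4% from 500 bp on.

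Of the 21 divided peaks, 20 held 2 replicate 2 peaks and 1 held 4, and they lay on 10 of 12 chromosomes. In the 20 with a pair, the replicate 2 summits were a median of 301.5 bp apart (243 to 442 bp), with a gap of 101 bp (78 to 198 bp) between the called intervals. The stronger of each pair had a median fold enrichment of 9.67 and the weaker 6.01, a median ratio of 1.5 (1.01 to 2.86). The replicate 1 summit fell inside the stronger replicate 2 peak in 20 of the 21. The pair closest in strength, with 12.6 and 12.4, lay in the 533 bp peak on chromosome 1 at 41421487 to 41422019.

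A further question was whether the displaced summit recurred on the same side. Of the 420 wide peaks with an offset of at least 50 bp, the strongest replicate 2 summit lay on the same side of the replicate 1 centre in 388 (92.4%, 95% Wilson interval 89.4 to 94.6). The comparison peaks held 4 peaks with such an offset, of which 2 had the replicate 2 summit on the same side, so the test had few peaks to work with (Fisher's exact test, two-sided, adjusted p = 0.0508). Among all 616 shared peaks with such an offset the share was 88.6%. Against all shared peaks of 200 to 300 bp, where 72 of 90 kept the side, the difference was 12.4 percentage points (Fisher's exact test, adjusted p = 0.00256). That difference came mostly from the narrowest of them, since 18 of 30 kept the side at 200 to under 250 bp (60.0%) and 51 of 57 at 250 to under 300 bp (89.5%). Each of these comparisons is limited to peaks with a large offset, which few narrow peaks had. Offsets reached 325.5 bp at wide peaks and 127.5 bp at all shared peaks of 200 to 300 bp. A summit farther from the centre changes side less easily, so the groups were not alike in this respect. At offsets of at least 75 bp the difference from paired comparison peaks was -6.79 points, with 1 comparison peak left. No difference between the groups in the side of the summit is therefore claimed.

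Positions of the summits were close between libraries in both groups. The replicate summits lay a median of 11 bp apart at wide peaks and 9 bp apart at comparison peaks. They lay over 100 bp apart at 41 wide peaks (5.87%) and at 3 comparison peaks (0.43%). Measured from the replicate 1 centre, the signed summit positions of the libraries had an r of 0.756 across wide peaks and 0.274 across comparison peaks, whose summits spanned a narrower range of positions. Within its own interval, the strongest replicate 2 peak had its summit a median of 25 bp off centre at wide peaks and 8 bp at comparison peaks.

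**Figure D4:**
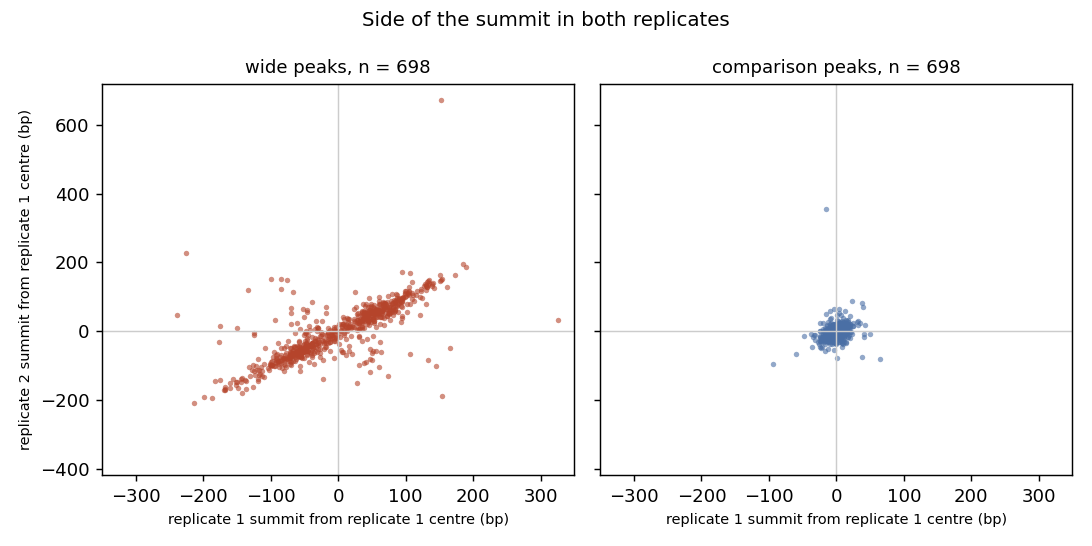
Position of the strongest replicate 2 summit against that of the replicate 1 summit, both in bp from the replicate 1 peak centre (negative to the left), for 698 wide peaks (left) and 698 comparison peaks (right). Wide peaks form a diagonal band in which 41 peaks have replicate summits over 100 bp apart, and comparison peaks cluster around the centre.

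Replicate 2 left the long flank partly uncovered. Replicate 2 peaks covered a median of 68.1% of the replicate 1 interval at wide peaks and 77.0% at comparison peaks. On the side of the summit, the replicate 1 interval ran a median of 32 bp beyond the replicate 2 peaks at wide peaks and 25 bp at comparison peaks. On the other side it ran 81.5 bp beyond them at wide peaks and 31 bp at comparison peaks. The uncovered stretch was the longer one on the side without the summit in 532 of 698 wide peaks (76.2%) and in 428 of 698 comparison peaks (61.3%). These values are a description, because the rule chose peaks that were long in replicate 1. Replicate 2 also had the narrower peaks in general, so differences in this direction go with that choice.

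Replicate 2 fold enrichment exceeded that of replicate 1 at 351 wide peaks (50.3%, 95% interval 46.6 to 54.0) and at 336 comparison peaks (48.1%, 44.5 to 51.8), where the share over all shared peaks was 59.4%. The difference of 2.15 percentage points had an interval of -3.09 to 7.37 and did not pass the test (Fisher's exact test, two-sided, adjusted p = 0.454). Its sign depended on the comparison peaks used, and against all shared peaks of 200 to 300 bp it was -4.18 points (Fisher's exact test, adjusted p = 0.0358). Those peaks were not paired by fold enrichment, and their replicate 1 median was 7.29, against 8.79 at wide peaks. The share fell with replicate 1 fold enrichment in both groups. From the lowest to the highest of the 4 fold groups it was 70.3%, 52.9%, 45.4% and 32.6% of the wide peaks. In comparison peaks over the same 4 ranges it was 80.1%, 49.7%, 37.4% and 25.1%. Both the share and the grouping use the replicate 1 fold enrichment, so a fall in this direction goes with the grouping. It does not show that stronger sites were weaker in replicate 2.

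The widest peak lay on chromosome 12 at 47004807 to 47006452 and spanned 1646 bp. Its replicate 1 fold enrichment was 8.90, with the summit 152 bp right of the centre. Replicate 2 placed 4 peaks in it, with fold enrichments of 4.88, 5.64, 7.51 and 9.39 from left to right and neighbouring summits at least 267 bp apart. The strongest of the 4 was the rightmost, 521 bp from the replicate 1 summit, whereas the replicate 1 summit fell in the third.

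The next widest, of 937 bp, lay immediately to its right, at 47006931 to 47007867. Its fold enrichment was 10.3 in replicate 1 and 10.5 in replicate 2, with 1 replicate 2 peak of 554 bp and summits 286 bp apart. Its replicate 1 summit lay 238.5 bp left of the centre, the second largest offset of all wide peaks. Together with 3 further members these peaks formed the longest run of wide peaks. In 6247 bp, from 47004807 to 47011053, 5 of the 6 replicate 1 peaks were wide, with widths of 548 to 1646 bp and a combined length of 4410 bp. Fold enrichment in the run was 5.04 to 11.997 in replicate 1 and 4.21 to 10.5 in replicate 2. The backgrounds were 7.04 to 8.29 tags in replicate 1 and 1.66 to 1.94 tags in replicate 2, below the medians of all wide peaks. The widest replicate 2 peak on the chromosomes, of 789 bp, also lay in this run.

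Other named peaks showed how differently replicate 2 could treat a wide interval. On chromosome 9 at 64813699 to 64814436, a peak of 738 bp, enriched 12.8-fold in replicate 1 and 11.9-fold in replicate 2, was a single replicate 2 peak of 687 bp with summits 4 bp apart, 214 bp left of the centre. On the same chromosome at 62670448 to 62671368, a peak of 921 bp had the largest offset of all, 325.5 bp. Its fold enrichment was 9.98 in replicate 1 and 5.64 in replicate 2, and replicate 2 placed there a single peak of 144 bp, with its summit 294 bp from that of replicate 1. Replicate 2 thus covered 93.1% of one and 15.6% of the other.

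Divided peaks were among the widest too. On chromosome 11 at 39204106 to 39204842, a peak of 737 bp held replicate 2 peaks of 219 and 327 bp with fold enrichments of 9.20 and 8.75. On the same chromosome at 9235141 to 9235901, a peak of 761 bp held replicate 2 peaks of 347 and 145 bp with 9.02 and 6.01, and at 3548159 to 3548822 one of 664 bp held peaks of 361 and 134 bp with 5.92 and 4.81. On chromosome 10 at 63069262 to 63069971, a peak of 710 bp held peaks of 158 and 448 bp with 5.33 and 11.99. The stronger replicate 2 summit lay within 20 bp of the replicate 1 summit at each of these 4 sites.

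At 2 further wide intervals replicate 2 had only a weak peak of 134 bp, the shortest length. The peak of 714 bp on chromosome 2 at 31159032 to 31159745 was enriched 5.29-fold in replicate 1 and 4.88-fold in replicate 2. The peak of 662 bp on chromosome 11 at 54418882 to 54419543 had 7.09 in replicate 1 and 4.51 in replicate 2, with summits 451 bp apart. Neither replicate 2 peak reached a −log10 q of 5, and the shared status of both intervals rests on these calls.

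**Figure D5:**
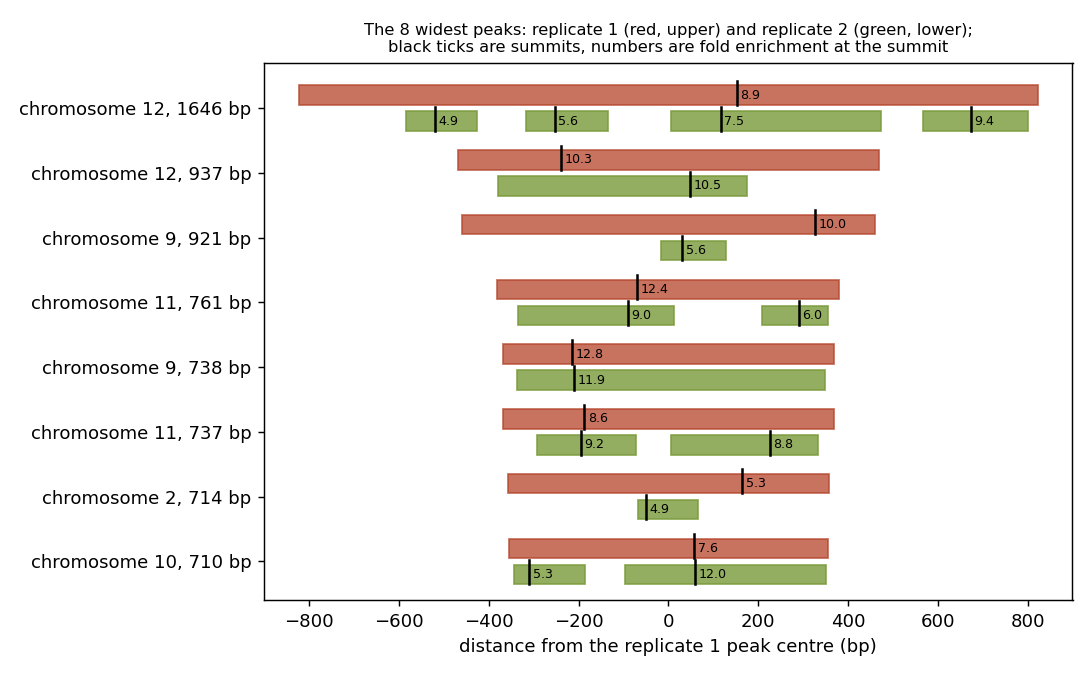
The 8 widest peaks, drawn to scale as distance from the replicate 1 centre (bp), with replicate 1 above (red) and replicate 2 below (green), summits as black ticks and fold enrichments as numbers. Replicate 2 has 4 peaks in the widest, 2 in each of 3 others and 1 in each of the other 4.

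The wide peaks with the highest enrichment in both libraries were not the widest ones. On chromosome 4 at 28467844 to 28468372, a peak of 529 bp was enriched 22.7-fold in replicate 1 and 23.2-fold in replicate 2. On chromosome 9 at 66682245 to 66682801, a peak of 557 bp had 21.6 and 24.6. On chromosome 3 at 3582175 to 3582573, a peak of 399 bp had 21.9 and 20.3. Those on chromosome 1 at 46888896 to 46889289 (394 bp) and chromosome 10 at 60071909 to 60072269 (361 bp) had 22.5 and 18.7, and 17.4 and 18.2, with the replicate 1 value given first. At all 5 the summits of the libraries lay within 16 bp of each other and replicate 2 had 1 peak, of 220 to 292 bp.

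Along the chromosomes, wide peaks were spread widely. They numbered 36 on chromosome 6 to 83 on chromosome 1. Their density was highest on chromosome 10, with 1.16 per Mb and 6.67% of its shared peaks, and lowest on chromosome 8, with 0.644 per Mb and 3.93%. The outer 20% at either end of a chromosome held 291 wide peaks (41.7%, 95% interval 38.1 to 45.4) and 258 comparison peaks (37.0%, 33.5 to 40.6), and 37.9% of all shared peaks. The difference was 4.73 percentage points (95% interval -0.40 to 9.82) and did not pass the test (Fisher's exact test, two-sided, adjusted p = 0.0954). It was 0.287 points with comparison peaks paired by background and fold enrichment (291 wide and 289 comparison peaks). With each chromosome divided into 10 equal parts, wide peaks were between 4.11% and 6.19% of the shared peaks of a part, and the highest share was in the first.

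Neighbouring HSFA1a peaks were more frequent around wide peaks within 5 kb, while no stable difference was found at the main distance of 1 kb. The distances of 500 bp and 5 kb were alternatives. A further replicate 2 peak that did not overlap the interval lay within 5 kb of 236 wide peaks (33.8%, 95% interval 30.4 to 37.4) and of 152 comparison peaks (21.8%, 18.9 to 24.99), against 23.6% of all shared peaks. The difference was 12.03 percentage points (Fisher's exact test, two-sided, adjusted p = 1.64e-06), and the share was higher at wide peaks on 10 of 12 chromosomes. It was 11.4 points without the longest run on chromosome 12. The adjusted p at 5 kb does not allow for the choice among these distances. The test also treats peaks as independent, although some wide peaks were neighbours of each other. Within 1 kb such a neighbour was found at 45 wide peaks (6.45%) and 24 comparison peaks (3.44%), against 4.41% of all shared peaks (Fisher's exact test, adjusted p = 0.026). That call at 1 kb was lost when pairs of equal fold enrichment were chosen in another way (Fisher's exact test, adjusted p = 0.145 and 0.249), and without the longest run (0.0811), so no difference is claimed within 1 kb.

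The nearest neighbour of a wide peak lay a median of 10.6 kb away, and that of a comparison peak 16.6 kb. By steps of 1 kb, the gap between the groups was widest from 2 to 3 kb, where the nearest neighbour of 75 wide peaks (10.7%), 33 comparison peaks (4.73%) and 465 of all 9705 peaks of 200 to 300 bp (4.79%) was found. These steps were looked at after the values were seen and were not tested. Of the 236 wide peaks with a neighbour within 5 kb, the nearest one overlapped another wide peak in 47 cases. Of the 152 such comparison peaks it did so in 8.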

How the data were processed

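The authors deposited 1 peak list per HSFA1a-Halo-tag replicate, called in each library with a q-value threshold of 0.05. The submitters' processing notes name Trimmomatic 0.38, Bowtie2 2.3.5, SAMtools 1.9 and MACS2 2.2.7.1. The study's methods align its other data to the M82 V1.0 assembly. For AmpDAP-seq, the control and the treatment of duplicates are not given in the sources used here. The deposited fold enrichment is the summit pileup over the local background, as a ratio. Significance was deposited as −log10 p and −log10 q at each summit. A score of 10 times the −log10 q was deposited too and entered no result.

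The software was Python 3.11.15, scipy 1.17.1, pandas 2.3.3, numpy 2.4.6 and, for plots, matplotlib 3.10.9. Positions are counted from 1. Pileup and background were solved from fold enrichment and −log10 p with the formulas of MACS2, at 100% of summits in both lists. Comparison peaks were taken without reuse, by nearest log2 fold enrichment, for wide peaks from highest to lowest. Ties were first settled by genome order, which drew 162 comparison peaks from chromosome 1, where 83 wide peaks lay. They were then settled by a seeded shuffle (92 on chromosome 1). This change was made after the first results had been seen, and both rules are compared in the closing section. Shares were tested with Fisher's exact test, two-sided, with Benjamini-Hochberg adjustment over 6 tests (that of divided peaks is not printed), and given with 95% Wilson intervals. These p-values and intervals treat peaks as independent, leave the pairing out and cover counting error only. Peaks are not replicates of a condition, and there were 2 libraries. Steps were tested on simulated data.

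The named peaks are the 8 widest, the 5 overlapped by most replicate 2 peaks (ties by width), the 5 with the highest lower fold enrichment of the 2 replicates, and the 4 with the largest summit offset. The divided peak on chromosome 1, the run on chromosome 12 and the couples on chromosome 10 were chosen after their values were seen. The members, lists and tests were chosen with earlier results of these data known. Alternatives covered other width, overlap, q-value, offset and distance limits, other choices of comparison peaks, and exchanged replicates. No comparison used peaks on contigs or organelle sequences. The sample of Halo-tag alone was not analysed here.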

Additional observations from a re-analysis of the deposited data

Results flagged for a closer look

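Replicate 2 alone had peaks of at least 350 bp outside the 12 numbered chromosomes, on sequences that no comparison above used. In replicate 2, 34 of 207 peaks on the mitochondrial sequence (16.4%) and 60 of 110 peaks on the chloroplast sequence (54.5%) spanned at least 350 bp, against 134 of 14606 peaks (0.917%) on the chromosomes. Their median fold enrichments were 2.60 (mitochondrial) and 3.23 (chloroplast), against 8.34 for the chromosomal replicate 2 peaks of that width. The widest chloroplast peak spanned 3440 bp. Replicate 1 had 5 mitochondrial peaks and 0 chloroplast peaks, none of them of 350 bp or more. No control library was analysed here for these sequences.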

How the results depend on the processing

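Of 113 alternatives over 25 results, 90 kept the direction and the side of the threshold or moved by less than the spread. The share in the widest 10% of replicate 2 kept its call in all 12 of its alternatives, with differences of 44.2 to 65.5 percentage points. The difference in divided peaks fell to 0.215 points with the roles of the replicates exchanged, was 1.25 points at widths of at least 300 bp and lay between 2.89 and 7.05 points elsewhere, where the count of divided peaks stayed at 20 or 21. For the side of the summit, the difference of 42.4 points passed the threshold at widths of at least 300 bp (31.1 points), against all peaks of 200 to 300 bp (12.4 points) and with pairing by background and fold enrichment (35.2 points), and it was -6.79 points at offsets of at least 75 bp, where 1 comparison peak was left. The difference in fold enrichment was -4.18 points against all peaks of 200 to 300 bp and -0.716 points with pairing by background and fold enrichment. The difference in neighbours within 1 kb lost its call in 9 of 13 alternatives. It was 1.19 points at widths of at least 300 bp, 2.72 points with replicate 2 peaks counted only with at least 50% of their length inside, 2.26 points at a −log10 q of at least 5, 2.15 points with pairing by −log10 q, 3.65 points with exchanged replicates and 1.43 points at 500 bp. Under 3 alternatives chosen after seeing the data it was 2.31 points without the longest run of wide peaks, 2.29 points with ties settled by genome order and 2.01 points with another shuffle. The outer 20% of chromosomes held 4.01 points more of the wide peaks when set against all peaks of 200 to 300 bp (Fisher's exact test, adjusted p = 0.0358), while the other 12 alternatives did not pass and ran from 0.287 points (pairing by background and fold enrichment) and 0.771 points (widths of at least 300 bp) to 5.16 points. The cause of these shifts was not tested. The number of wide peaks was 1686 at a threshold of 300 bp and 298 at 400 bp. The correlation of fold enrichment was 0.720 over the middle 90% of wide peaks and 0.814 for −log10 q. At a −log10 q of at least 5, 2 named peaks held 0 replicate 2 peaks. The median fold enrichment of wide peaks ranged from 8.26 to 8.79 when either replicate was left out. No pairing of samples by replicate number was possible, because HSFA1a-Halo-tag was the only analysed group. The 1 to 1 pairing of wide and comparison peaks was left out of the tests, and no test that uses it was run. The analysis rests on 2 libraries of unequal solved pileup with a background that moved together, and peak ends depend on the peak caller. A replicate 2 peak that was not called therefore does not show that HSFA1a was not bound.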

Other observations

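The excess of neighbours 2 to 3 kb from wide peaks was spread over several neighbouring steps of 100 bp, with its highest step at 2600 to 2700 bp. Distances from each wide peak summit to the replicate 2 summits of peaks that did not overlap it, up to 5 kb, were counted in steps of 100 bp. Among the 292 distances from wide peaks, 28 fell between 2600 and 2700 bp, while the other steps from 1 kb on held 1 to 16, with a median of 5. Per 100 peaks this step held 4.01 distances from wide peaks and 0.824 from all 9705 shared peaks of 200 to 300 bp. The steps from 2300 to 2600 bp held 1.72, 1.58 and 2.29 distances per 100 wide peaks, against 0.433, 0.577 and 0.752 per 100 peaks of 200 to 300 bp, and the step from 2700 to 2800 bp held 1.58 against 0.546. Those narrower peaks had their highest step at 2000 to 2100 bp, with 141 of 2396 distances (1.72 per 100 wide peaks, against 1.45 per 100 peaks of 200 to 300 bp). A replicate 2 summit 2500 to 2800 bp away was found for 55 wide peaks (7.88%) on 11 chromosomes and for 204 peaks of 200 to 300 bp (2.10%). The distance was picked after the counts were seen and was not tested, and the 2 peaks of a couple can each contribute it.

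In replicate 1, 45 couples of shared peaks with summits 2500 to 2800 bp apart contained a wide peak, on 11 chromosomes, and both peaks were wide in 11 of them. Couples without a wide peak were not counted, so no share over all shared peaks stands beside these numbers. Chromosome 10, where the density of wide peaks was highest, held 12 couples. From 50861601 to 50972323 on that chromosome, 3 couples with summit distances of 2604 to 2643 bp followed each other at steps of 54.2 and 53.6 kb. Their fold enrichments were 9.93 to 15.1 in replicate 1 and 9.26 to 12.5 in replicate 2. The first of them combined peaks of 396 and 559 bp, at 50861601 to 50861996 and at 50864106 to 50864664. From 53847080 to 54218538, 6 couples with summit distances of 2580 to 2755 bp followed each other at steps of 46.2, 119.6, 52.6, 52.7 and 97.4 kb. Their fold enrichments were 5.95 to 13.5 in replicate 1 and 5.14 to 13.1 in replicate 2, and 7 of their peaks were wide. Whether the couples share sequence was not analysed here.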
